A study of Homo sapiens with 9 samples.

Results

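Heat shock proteins and their DNAJ partners were followed in H9 human embryonic stem cells and 2 lineages derived from them, with 9 total RNA libraries in all. Members were the genes of the HSPA, HSPB and HSP90 families, HSPD1, HSPE1, HSPH1 and the DNAJA, DNAJB and DNAJC families, chosen by symbol. They came to 70 of the 21417 gene symbols in the table, 25 heat shock protein genes and 45 DNAJ genes. Of these, 56 had a mean over the 9 libraries of at least 0.5 RPKM (reads per kilobase of transcript, scaled to library size) and were tested among 14473 genes. The other 14 members lay between 0 and 0.73 RPKM in every library, with means from 0.0322 to 0.388. HSP90B2P had the highest mean below that minimum, 0.388 RPKM, and DNAJC27 the lowest above it, 0.639 RPKM. HSPA1A, HSPA1B, HSPA6 and HSPB3 were not analysed here.

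Chaperones bind unfolded or partly folded proteins and let them fold, refold or be handed to degradation. HSP70 proteins, encoded by HSPA genes, bind and release clients in an ATP cycle that J-domain proteins of the DNAJ families start and exchange factors end. HSP90 proteins act later on nearly folded clients such as kinases and receptors, chaperonins enclose clients in a chamber, and small heat shock proteins of the HSPB family hold them without ATP. Cytosol, endoplasmic reticulum (ER) and mitochondria each have their own HSP70. Pluripotent stem cells are known for high chaperone levels.

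The cells were undifferentiated H9 cells at day 0 (hESC), H9-derived neuroectoderm and H9-derived mesendoderm, the last 2 at day 5, with 3 libraries per group. All groups are this 1 line. Stem cells were grown on Matrigel in mTeSR1 medium. Neuroectoderm received 200 nM NOGGIN, an antagonist of BMP, together with 10 µM SB431542, an inhibitor of activin and Nodal receptors, and mesendoderm received 5 ng/ml of hBMP4 added to mTeSR1. Whether the 3 libraries of each group are separate cultures is not stated in the labels, and p-values here reflect only the scatter among these libraries, possibly a technical one.

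The low values of each library were steps of 1 read that correspond to 36900000 to 70000000 reads (rounded) in the RPKM denominator, so that 3 reads on a transcript of 1 kb amount to 0.0429 to 0.0813 RPKM (counting error only). The 3 libraries hESC 2, neuroectoderm 1 and mesendoderm 1 are those said below to stand apart, a name given by GC content only. Their deviations from the group mean correlated with GC content at Spearman's rho of -0.598, -0.545 and -0.282 across 13557 genes. The other 6 libraries gave 0.184 to 0.567. Deviations cancel within a group, so opposite signs there are partly forced. Mesendoderm 1 was the least distinct. Its Pearson's r was 0.9911 with mesendoderm 3 and 0.9807 with mesendoderm 2, beside 0.9914 between mesendoderm 2 and 3. Summed levels of 5 neuroectoderm markers were 260 to 328 RPKM in neuroectoderm and 34.6 to 40.8 in hESC, and those of 6 mesendoderm markers were 96.4 to 153 RPKM in mesendoderm and 0.30 to 0.71 in hESC. All 5 undifferentiated markers fell in mesendoderm but stayed present. NANOG was at 20.7 to 23.2 RPKM in hESC, 0.08 to 0.18 in neuroectoderm and 7.68 to 18.4 in mesendoderm. TDGF1 was at 51.8 to 60.2, 0.02 to 0.11 and 14.1 to 34.2 RPKM in that order. Neuroectoderm was below mesendoderm for 4 of the 5 and above it for LIN28A. The part of remaining undifferentiated cells in the chaperone values of mesendoderm was not tested. In cells derived with BMP4, genes listed as markers of other types were also higher, though bulk values do not tell which cells held them. The trophoblast list summed to 65.9 to 111 RPKM and the amnion list to 37.3 to 71.6 RPKM. In hESC these sums were 4.79 to 7.20 and 0.88 to 1.13 RPKM. Most of the trophoblast sum was HAND1 (41.9 to 85.3 RPKM), and KRT7 (23.9 to 29.3 RPKM) made up nearly all the rest. The trophoblast genes CGA and GCM1 stayed at or below 0.24 RPKM. The genes of both lists that passed in mesendoderm were KRT7, HAND1, ISL1, GABRP and VTCN1. KDR was at 80.7 to 86.4 RPKM there while the endothelial genes PECAM1 and CDH5 stayed at or below 0.09 RPKM.

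More chaperone genes were lower than higher in neuroectoderm. There 24 of the 56 tested members fell (42.9%) and 8 rose (14.3%) against hESC by limma at an adjusted p under 0.05, beside 22.3% of all genes that fell and 21.9% that rose. In mesendoderm 10 members fell (17.9%) and 6 rose (10.7%), beside 18.1% and 17.0% of all genes, so that these counts lay near or under the background. Neuroectoderm was lower than mesendoderm for 25 members (44.6%) and higher for 6 (10.7%), beside 24.1% and 24.0% of all genes. The median log2 difference of log2(RPKM + 1) was -0.25 for the members in neuroectoderm and -0.12 in mesendoderm, both against hESC, and -0.32 between the lineages, while the medians of all genes were -0.02, -0.02 and -0.01. Both lineages were compared with the same hESC libraries, and in bulk RNA fewer expressing cells cannot be told apart from less RNA per cell. The count of rises in neuroectoderm was unstable. It was 2 without hESC 1, 3 without hESC 3, 4 without neuroectoderm 3, and 5 without neuroectoderm 2 or mesendoderm 3. With small RNA genes left out and the rest rescaled, which moved the median of all genes against hESC to -0.12 in both lineages, it was 3.

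**Figure D1:**
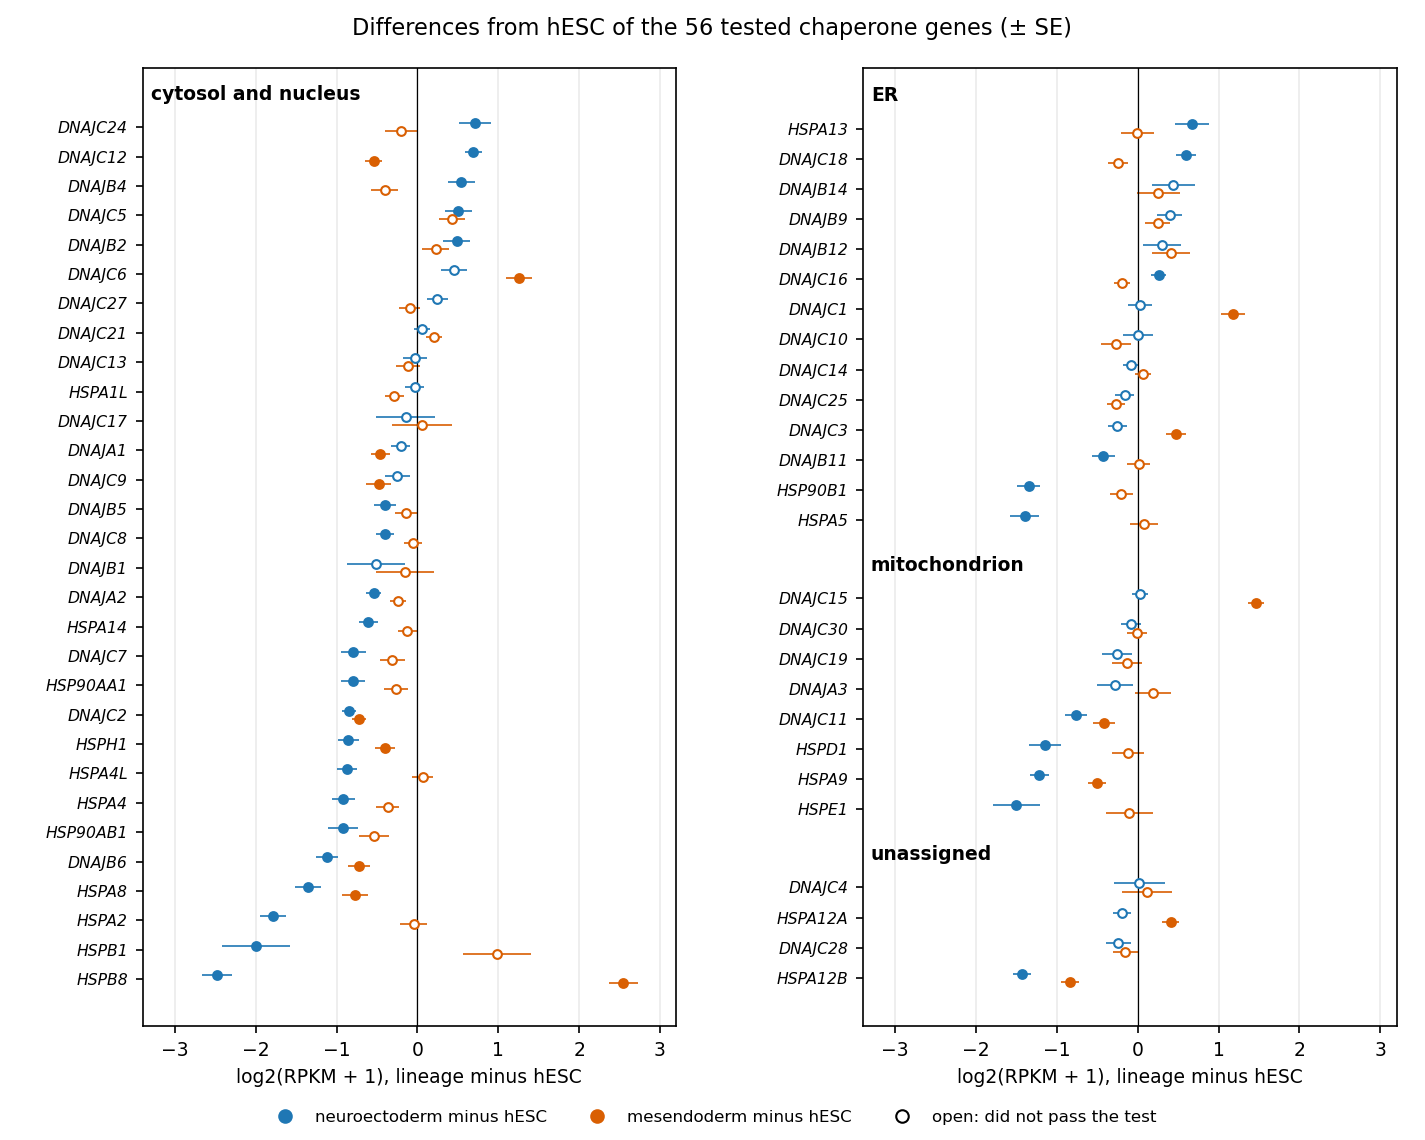
Each point is the log2(RPKM + 1) difference from hESC of 1 tested member, with its SE as a bar, in neuroectoderm (blue) and mesendoderm (orange); filled points passed an adjusted p under 0.05. Among members of the cytosol and nucleus 16 of 30 fell in neuroectoderm and 7 in mesendoderm. These are 53.3% and 23.3%, beside 22.3% and 18.1% of all genes. HSPB8 is the member whose filled points lie farthest apart.

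The falls lay mainly in the heat shock proteins proper. Of 19 tested heat shock protein genes 16 fell in neuroectoderm and HSPA13 rose, and 4 fell and 2 rose in mesendoderm. The mesendoderm shares, 21.1% and 10.5%, were near or under the 18.1% and 17.0% of all genes. Of 37 tested DNAJ genes 8 fell and 7 rose in neuroectoderm, and 6 fell and 4 rose in mesendoderm. These shares of the DNAJ genes, 21.6% and 18.9% in neuroectoderm and 16.2% and 10.8% in mesendoderm, were at or under those of all genes. The difference between the classes was not tested. Abundant members moved one way: of the 20 members with a mean of at least 20 RPKM, a split chosen after the values were seen, 17 fell and none rose in neuroectoderm, and 6 fell and none rose in mesendoderm by limma. At an unadjusted p under 0.05, 0 of the 20 were higher in neuroectoderm and 1 in mesendoderm (HSPB1). Of all 2933 genes of that level, 22.5% fell and 9.75% rose in neuroectoderm, and 13% fell and 11.8% rose in mesendoderm.

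Summed over all 70 members, chaperone RNA was 3175, 3120 and 3441 RPKM in the hESC libraries, 1580, 1779 and 1783 RPKM in neuroectoderm and 2497, 2562 and 2548 RPKM in mesendoderm. The 3 groups did not overlap, with hESC highest and neuroectoderm lowest. HSP90AB1, HSPA8 and HSP90AA1 held 48.4% to 57.8% of the sum, and the 8 most abundant members 70.3% to 78.0%. By compartment, the cytosolic and nuclear members summed to 2404 ± 143.5 RPKM (SD, n = 3) in hESC, 1278 ± 76.1 in neuroectoderm and 1755 ± 5.67 in mesendoderm. The 14 ER members summed to 368 ± 14.7, 212 ± 6.47 and 362 ± 24.8 RPKM in the same order, and the 8 mitochondrial members to 461 ± 25.5, 215 ± 39.9 and 408 ± 59.7 RPKM. The ER and mitochondrial sums of mesendoderm thus overlapped those of hESC, and those of neuroectoderm lay below both.

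**Figure D2:**
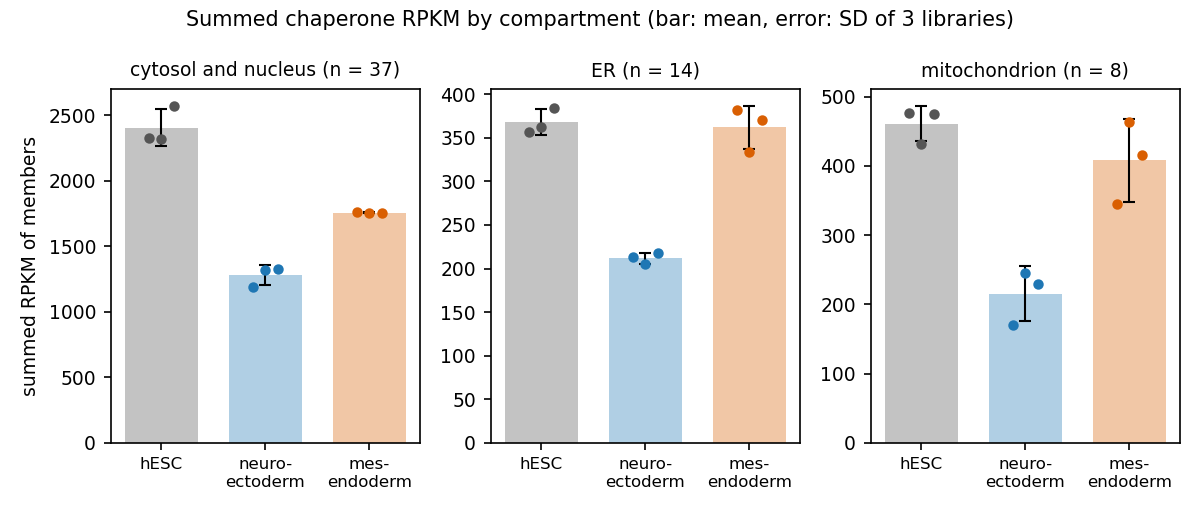
Bars give the mean summed RPKM of the members of each compartment, error bars the SD and points the 3 libraries of each group. Mesendoderm lies between the other groups for the cytosol and nucleus and overlaps hESC for the ER and mitochondrion, while neuroectoderm is lowest in all 3 panels.

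The 3 most abundant members, cytosolic HSP70 and HSP90 genes, fell in neuroectoderm, and HSPA8 also fell in mesendoderm. HSPA8, the constitutive cytosolic HSP70 that also uncoats clathrin vesicles, was at 642, 672 and 726 RPKM in hESC, at 260.02, 271 and 265 in neuroectoderm and at 401, 409 and 381 in mesendoderm. The 3 groups were separate. HSPA8 fell by 1.35 ± 0.16 (log2, SE) in neuroectoderm (adjusted p = 0.000166) and by 0.77 ± 0.16 in mesendoderm (adjusted p = 0.00556). Between the lineages it differed by -0.58 ± 0.16 (adjusted p = 0.0159), a call lost in 5 of 19 alternative settings, among them those without neuroectoderm 3, mesendoderm 2 or mesendoderm 3 (adjusted p = 0.0523, 0.056 and 0.0509).

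HSP90AB1, the constitutive cytosolic HSP90, was the most abundant member at 824, 769.76 and 944 RPKM in hESC, 390.49, 481 and 468 in neuroectoderm and 579.66, 574 and 589.83 in mesendoderm. Again no group overlapped another. It fell by 0.92 ± 0.19 in neuroectoderm (adjusted p = 0.00407), whereas the difference of -0.54 ± 0.19 in mesendoderm did not pass (adjusted p = 0.0571) and did so in 5 alternative settings (0.00717 to 0.0412). HSP90AA1, its stress-inducible paralog, was at 309, 337 and 321 RPKM in hESC, 192, 174 and 190.42 in neuroectoderm and 286, 258 and 263 in mesendoderm. It fell by 0.80 ± 0.15 in neuroectoderm (adjusted p = 0.00222) and differed by -0.26 ± 0.15 in mesendoderm (adjusted p = 0.206). The ratio of HSP90AB1 to HSP90AA1 RPKM ranged from 2.03 to 2.94 over the 9 libraries and overlapped between the groups.

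**Figure D3:**
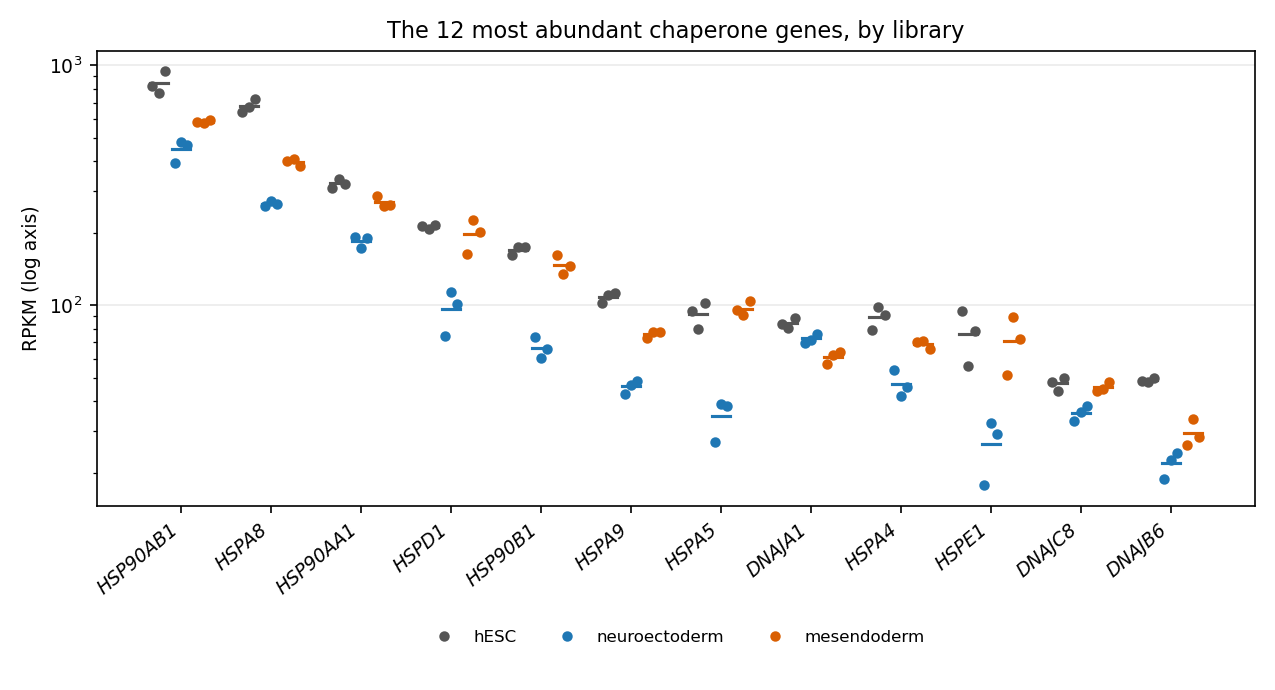
RPKM on a log axis of the 12 members with the highest mean over the 9 libraries; points are libraries and lines group means. Neuroectoderm points lie below the hESC points for all 12 genes, while mesendoderm overlaps hESC for HSPD1, HSPA5, HSPE1 and DNAJC8.

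Heat shock factors bind alternating units of GAA and TTC. Promoter windows from 250 bases before to 50 after the annotated start (RefSeq, GRCh38.p14) were found for 60 of the 70 members and searched on both strands for 3 units spaced by 2 bases, GAANNTTCNNGAA or TTCNNGAANNTTC, where overlapping matches count separately. A match occurred in 166 of 27305 symbols with a window (0.608%) and in 6 of the 60 members: HSPA8, HSP90AB1, HSP90AA1, HSPD1, DNAJB6 and DNAJA1. These members are among the 12 most abundant, and 5 of them fell in neuroectoderm. So did 17 of the 20 members with a mean of at least 20 RPKM, to which these 6 belong. A link between the matches and the falls was not tested. The stretches that hold the matches before the start are shown because these members hold the matches, and HSPA8, HSP90AB1 and HSP90AA1 hold the largest share of the sums. They are written 5′ to 3′ on the strand of the gene with the match in capitals. A match is a description of letters, not of binding. Counted from the start, the matches of HSPA8 begin at -230 and -55 (chr11:123062164-123062381, minus strand), those of HSP90AB1 at -165 and -112 (chr6:44247763-44247858, plus strand) and that of HSP90AA1 at -88 (chr14:102087105-102087147, minus strand). The matches of HSPD1 overlap and begin at -245 and -240 (chr2:197500053-197500090, minus strand), and that of DNAJB6 begins at -131 (chr7:157336858-157336900, plus strand).
HSPA8: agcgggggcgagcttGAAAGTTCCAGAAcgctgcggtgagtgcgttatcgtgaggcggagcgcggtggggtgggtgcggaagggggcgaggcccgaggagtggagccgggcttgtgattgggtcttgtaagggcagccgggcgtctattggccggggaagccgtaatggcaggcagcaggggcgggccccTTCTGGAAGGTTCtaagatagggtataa
HSP90AB1: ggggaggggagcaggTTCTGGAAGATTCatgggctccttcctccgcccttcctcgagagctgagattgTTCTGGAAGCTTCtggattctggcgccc
HSP90AA1: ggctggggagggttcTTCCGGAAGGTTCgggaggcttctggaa
HSPD1: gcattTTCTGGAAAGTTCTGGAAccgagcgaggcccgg
DNAJB6: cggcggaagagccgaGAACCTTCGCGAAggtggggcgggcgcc

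None of the 3 tested genes of the heat shock factor list, HSF1, HSF2 and HSBP1, passed as lower in either lineage. HSF1, the main activator of the heat shock response, was at 39.4, 28.1 and 43.7 RPKM in hESC, 21.0, 46.4 and 42.1 in neuroectoderm and 33.3, 35.8 and 31.7 in mesendoderm. These ranges overlapped, and neither difference passed (adjusted p = 0.854 and 0.786). HSF2, a factor known from development, was at 7.41, 8.69 and 6.76 RPKM in hESC and at 17.1, 13.3 and 14.2 RPKM in neuroectoderm, a rise of 0.88 (adjusted p = 0.00363), and at 11.7, 7.03 and 8.33 RPKM in mesendoderm. Of 7 immediate early genes tested, which respond to many stimuli, 3 rose and none fell in each lineage by limma, with 2 lower in neuroectoderm and 0 in mesendoderm at an unadjusted p under 0.05. ATF3 went from 5.30 to 6.42 RPKM in hESC to 23.9 to 32.0 RPKM in neuroectoderm. The part of such responses in the chaperone differences was not tested.

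Exchange factors of the HSP110 type, which release clients from HSP70, fell with it in neuroectoderm. HSPA4 was at 78.9, 98.3 and 91.4 RPKM in hESC, 53.5, 41.9 and 45.8 in neuroectoderm and 70.3, 70.7 and 65.6 in mesendoderm. HSPH1 was at 29.1, 35.03 and 32.2 RPKM in hESC, 19.9, 15.2 and 17.1 in neuroectoderm and 25.2, 22.9 and 24.1 in mesendoderm. HSPA4L, a paralog, was low at 1.28, 1.58 and 1.25 RPKM in hESC, 0.45, 0.30 and 0.15 in neuroectoderm and 1.59, 1.74 and 1.14 in mesendoderm. All 3 genes were lower in each neuroectoderm library than in any hESC library. Against hESC, neuroectoderm differed by -0.92 ± 0.14 for HSPA4 (adjusted p = 0.000792), -0.85 ± 0.13 for HSPH1 (adjusted p = 0.000636) and -0.87 ± 0.13 for HSPA4L (adjusted p = 0.000612). The pseudocount of 1 limits the fitted difference of HSPA4L, whose ratio of RPKM means was 0.219, beside 0.526 for HSPA4 and 0.541 for HSPH1. In mesendoderm HSPH1 fell by 0.40 ± 0.13 (adjusted p = 0.0379), a call lost in 9 alternative settings (0.0557 to 0.116), and the differences of HSPA4 and HSPA4L did not pass (adjusted p = 0.0732 and 0.732), although that of HSPA4 did in 4 settings (0.0254 to 0.0481).

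Other HSPA members were of low level and varied in direction. HSPA2, an HSP70 best known from spermatogenesis, was at 7.36, 5.34 and 6.88 RPKM in hESC, 0.82, 1.56 and 1.19 in neuroectoderm and 5.24, 7.25 and 6.39 in mesendoderm. Only the neuroectoderm libraries were low: HSPA2 fell there by 1.79 ± 0.17 (adjusted p = 3.59e-05), while mesendoderm differed from hESC by -0.05 ± 0.17 (adjusted p = 0.864). The divergent HSP70 relative HSPA12B was at 2.47, 2.05 and 2.62 RPKM in hESC, 0.39, 0.20 and 0.17 in neuroectoderm and 0.85, 0.76 and 1.06 in mesendoderm, and fell by 1.43 ± 0.11 and 0.84 ± 0.11 (adjusted p = 1.24e-05 and 0.000439). Its paralog HSPA12A was under 1.6 RPKM everywhere and rose by 0.41 ± 0.11 in mesendoderm (adjusted p = 0.0184), a call lost without hESC 2, hESC 3 or mesendoderm 2. HSPA1L was at 0.33 to 0.91 RPKM and passed no test.

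HSPA14 works at the ribosome with DNAJC2, where the pair stimulates HSP70 on new chains. DNAJC2 was at 16.7, 17.6 and 17.9 RPKM in hESC, 9.12, 9.0 and 9.59 in neuroectoderm and 9.87, 10.3 and 10.2 in mesendoderm. Both lineages were thus well below hESC, by 0.85 ± 0.08 and 0.73 ± 0.08 (adjusted p = 5.61e-05 and 0.000197). For HSPA14 the transcript with the highest mean went from 12.3, 14.03 and 13.4 RPKM in hESC to 7.16, 8.40 and 9.64 in neuroectoderm and 12.1, 12.2 and 11.9 in mesendoderm, a fall of 0.61 ± 0.11 in neuroectoderm (adjusted p = 0.00248). Its other 2 transcripts had higher means in neuroectoderm than in hESC, 8.56 against 6.83 RPKM and 7.65 against 6.32 RPKM. With the transcripts summed the fall did not pass (-0.10, adjusted p = 0.462), and the difference between the lineages turned from -0.48 to 0.03.

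The HSP70 and HSP90 of the ER separated the lineages, while the 14 ER members together ran both ways. Against hESC 3 of the 14 fell and 3 rose in neuroectoderm (21.4% each), near the 22.3% and 21.9% of all genes. Neuroectoderm was lower than mesendoderm for 5 (35.7%) and higher for 3 (21.4%), beside 24.1% and 24.0% of all genes. The median difference between the lineages was -0.006. HSPA5 (BiP), the HSP70 of the ER, was at 94.7, 79.6 and 102 RPKM in hESC, 26.8, 38.8 and 38.1 in neuroectoderm and 95.3, 91.5 and 104 in mesendoderm. HSP90B1 (GRP94), the HSP90 of the ER, was at 162, 174 and 175 RPKM in hESC, 74.1, 60.2 and 65.5 in neuroectoderm and 162, 136 and 146 in mesendoderm. For both genes every neuroectoderm library lay below every other library, while mesendoderm overlapped hESC for HSPA5 and lay just below it for HSP90B1. The falls in neuroectoderm were 1.40 ± 0.17 for HSPA5 (adjusted p = 0.000216) and 1.35 ± 0.14 for HSP90B1 (adjusted p = 7.83e-05). Mesendoderm differed from hESC by 0.08 ± 0.17 and -0.21 ± 0.14 (adjusted p = 0.772 and 0.297), and neuroectoderm from mesendoderm by -1.48 ± 0.17 and -1.14 ± 0.14 (adjusted p = 0.000127 and 0.000182). The ratio of HSPA8 to HSPA5 RPKM was 6.78 to 8.44 in hESC, 6.96 to 9.70 in neuroectoderm and 3.67 to 4.47 in mesendoderm, so that only mesendoderm stood apart in it.

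The ER stress element, CCAAT and CCACG spaced by 9 bases, is the site through which the unfolded protein response is known to act on ER chaperone genes. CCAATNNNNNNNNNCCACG or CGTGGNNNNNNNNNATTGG occurred in 25 of 27305 symbols with a promoter window (0.0916%) and in 2 of the 60 members, HSPA5 and HSP90B1. They are shown because these are the ER members that fell most in neuroectoderm, with the matches in capitals as before. The match of HSPA5 begins at -66 (chr9:125241376-125241424, minus strand), and those of HSP90B1 begin at -194 and -89 (chr12:103930201-103930354, plus strand).
HSPA5: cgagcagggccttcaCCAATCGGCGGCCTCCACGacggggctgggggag
HSP90B1: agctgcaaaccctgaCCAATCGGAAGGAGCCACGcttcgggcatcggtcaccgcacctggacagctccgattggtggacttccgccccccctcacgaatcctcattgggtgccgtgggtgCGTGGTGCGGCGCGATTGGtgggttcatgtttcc

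The remaining 12 ER members are HSPA13 and J-domain proteins, several of them known BiP partners. Of these 12, 1 fell and 3 rose in neuroectoderm, near or under the 22.3% and 21.9% of all genes. DNAJB11 (ERdj3), a soluble BiP co-chaperone, was at 30.2, 23.6 and 33.2 RPKM in hESC, 20.03, 20.9 and 22.5 in neuroectoderm and 29.2, 26.6 and 31.3 in mesendoderm, and fell by 0.43 ± 0.14 in neuroectoderm (adjusted p = 0.0373). That call was lost in 8 alternative settings, among them those without hESC 1 or 3 (0.109 and 0.141). DNAJC3 (P58IPK), which also restrains the kinase encoded by EIF2AK3, was at 6.06, 7.88 and 6.44 RPKM in hESC, 5.99, 5.00 and 5.59 in neuroectoderm and 10.8, 8.75 and 9.83 in mesendoderm. It rose in mesendoderm by 0.47 ± 0.12 (adjusted p = 0.0157), lost in 5 settings (0.0547 to 0.205), and neuroectoderm was lower than mesendoderm by 0.72 ± 0.12 (adjusted p = 0.00115) in the main setting and in every alternative. DNAJC1 (ERdj1), a membrane protein that brings BiP to the ribosome, was at 7.57, 6.64 and 6.67 RPKM in hESC, 6.57, 6.49 and 8.43 in neuroectoderm and 19.6, 13.97 and 17.8 in mesendoderm. Only mesendoderm was high, by 1.18 ± 0.15 over hESC (adjusted p = 0.000286).

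In neuroectoderm the ER members that rose were HSPA13, DNAJC18 and DNAJC16. HSPA13, a microsomal HSP70 relative without a substrate domain, was at 7.84, 12 and 8.98 RPKM in hESC, 20.4, 12.99 and 14.5 in neuroectoderm and 11.5, 7.90 and 9.24 in mesendoderm. It rose by 0.67 ± 0.21 (adjusted p = 0.0272), with a call lost in 6 settings, including without neuroectoderm 1, hESC 1 or hESC 3 (0.0555, 0.0998 and 0.0828). DNAJC18, an ER membrane J protein, was at 3.12, 3.51 and 3.07 RPKM in hESC, 4.43, 5.95 and 5.90 in neuroectoderm and 2.18, 2.97 and 2.59 in mesendoderm, and rose by 0.60 ± 0.13 (adjusted p = 0.00488). DNAJC16 rose by 0.26 ± 0.09 at the edge of the threshold (adjusted p = 0.0493) and lost that call in 16 of 19 settings. The other ER members, DNAJB9, DNAJB12, DNAJB14, DNAJC10, DNAJC14 and DNAJC25, passed no test against hESC in the main setting. DNAJC25 shares exons with the readthrough unit DNAJC25-GNG10, at 6.13 to 9.10 RPKM, so its reads are uncertain. DNAJB12 was at 4.35 RPKM in neuroectoderm 1 and at 9.83 and 8.64 in neuroectoderm 2 and 3. The DNAJB14 transcript used was at 3.15, 7.27 and 8.63 RPKM in neuroectoderm 1, 2 and 3. The other 2 DNAJB14 transcripts ran the other way, at 6.15, 4.40 and 4.64 RPKM and at 6.13, 4.18 and 4.31 RPKM. Both genes rose without the 3 libraries that stand apart, DNAJB12 with adjusted p = 0.00184 in neuroectoderm and 0.0071 in mesendoderm, and DNAJB14 with 0.000488 and 0.0368. DNAJB14 also rose in neuroectoderm with transcripts summed (adjusted p = 0.00285), and DNAJB9 passed there without hESC 2 (0.0362).

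Other ER folding genes, a list of 16 with all tested, gave 6 lower and 2 higher in neuroectoderm, 1 lower and 1 higher in mesendoderm, and 9 lower and none higher in neuroectoderm against mesendoderm by limma (10 and 0 at an unadjusted p under 0.05). The stress-induced genes SDF2L1 (-1.62, adjusted p = 0.000415), PDIA4 (-1.05, adjusted p = 0.0119) and CRELD2 (-1.04, adjusted p = 0.0144) fell in neuroectoderm, and HERPUD1, which serves ER-associated degradation, rose (0.76, adjusted p = 0.0148). The call of CRELD2 was lost without hESC 1 (0.0533), and that of HERPUD1 without neuroectoderm 2 or 3 (0.0501 and 0.0558). In mesendoderm the rise was that of HERPUD1 (adjusted p = 0.0475) and was lost in 11 settings. Of 8 regulators of the unfolded protein response, 3 rose in neuroectoderm and 1 fell. DDIT3 (CHOP) rose from 3.70 to 3.84 RPKM in hESC to 7.87 to 13.7 RPKM (1.25, adjusted p = 0.000281), ATF6 rose by 1.08 (adjusted p = 1.56e-05), PPP1R15A by 0.98 (adjusted p = 0.000996), and EIF2AK3 (PERK) fell by 0.62 (adjusted p = 0.00204). In mesendoderm 4 of the regulators rose, ERN1, ATF6, DDIT3 and PPP1R15A, by 0.43 to 0.70, and none fell (0 at an unadjusted p under 0.05). The rise of ATF6 was lost with small RNA left out (0.18), and those of DDIT3 and ERN1 in 6 settings each (0.0525 to 0.0634 and 0.0522 to 0.0871).

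Of the 8 mitochondrial members 4 fell in neuroectoderm and the other 4 did not pass. HSPA9 (mortalin), the HSP70 of the matrix and motor of protein import, was at 102, 110.45 and 113 RPKM in hESC, 42.9, 46.7 and 48.4 in neuroectoderm and 73.2, 77.6 and 77.5 in mesendoderm. The groups were separate, with falls of 1.22 ± 0.12 and 0.50 ± 0.12 (adjusted p = 4.46e-05 and 0.00966). HSPD1 (HSP60), the matrix chaperonin, was at 214, 207.5 and 216 RPKM in hESC, 74.4, 114 and 101.27 in neuroectoderm and 163, 227 and 203 in mesendoderm. HSPE1 (HSP10), the lid of that chaperonin, was at 94.5, 56.1 and 78.1 RPKM in hESC, 17.8, 32.4 and 28.96 in neuroectoderm and 51.2, 89.3 and 72.3 in mesendoderm. Both partners of the chaperonin were low in every neuroectoderm library and spread widely in mesendoderm, where mesendoderm 1 was the lowest for each. In neuroectoderm they differed by -1.15 ± 0.20 (HSPD1, adjusted p = 0.0015) and -1.504 ± 0.29 (HSPE1, adjusted p = 0.00287), and in mesendoderm by -0.12 ± 0.20 and -0.11 ± 0.29 (adjusted p = 0.693 and 0.812). HSPE1 shares exons with the readthrough unit HSPE1-MOB4, whose values were 20.1 to 22.5 RPKM in hESC and 10.03 to 10.5 in neuroectoderm, so the split of reads between the 2 is uncertain.

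Among mitochondrial J proteins DNAJC15 behaved differently. DNAJC15 (MCJ), an inner membrane protein that restrains respiration, was at 1.92, 1.71 and 1.58 RPKM in hESC, 1.72, 1.67 and 1.96 in neuroectoderm and 7.31, 6.16 and 6.24 in mesendoderm. It rose in mesendoderm by 1.47 ± 0.10 (adjusted p = 6.86e-06), and hESC and neuroectoderm overlapped. Its paralog DNAJC19, a subunit of the import motor, was at 5.83 to 11 RPKM over the 9 libraries and passed no test. DNAJC11, a protein of the cristae junction complex, was at 29.3, 27.5 and 33.7 RPKM in hESC, 14.7, 19.0 and 18.7 in neuroectoderm and 21.0, 24.5 and 21.6 in mesendoderm. It fell by 0.76 ± 0.14 in neuroectoderm (adjusted p = 0.00182) and by 0.41 ± 0.14 in mesendoderm (adjusted p = 0.0418), the latter lost in 7 settings. DNAJA3 and DNAJC30 passed no test against hESC. Of 10 genes of the import machinery and mitochondrial proteases, 2 fell and 2 rose in neuroectoderm and 2 rose in mesendoderm: TIMM23, the import channel, rose in mesendoderm from 9.48 to 13.1 to 19.4 to 31.5 RPKM (1.08, adjusted p = 0.0247; lost without hESC 2, hESC 3, mesendoderm 2 or mesendoderm 3, 0.0597 to 0.084), and AFG3L2, a membrane protease, fell by 0.95 in neuroectoderm (adjusted p = 0.00299). The exchange factor of HSPA9, GRPEL1, fell by 0.59 in neuroectoderm (adjusted p = 0.00193), and its paralog GRPEL2 fell by 0.83 in mesendoderm (adjusted p = 0.00243).

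Small heat shock proteins separated the lineages most widely. HSPB8 (HSP22), which with BAG3 sends misfolded clients to autophagy, was at 4.39, 4.40 and 6.09 RPKM in hESC, 0.07, 0.02 and 0.09 in neuroectoderm and 42.1, 25.3 and 35.5 in mesendoderm. The neuroectoderm values were of the size of the 3-read floor, so no fold is given against them. HSPB8 was higher in mesendoderm than in hESC by 2.55 ± 0.18 (adjusted p = 1.13e-05) and passed the test as lower in neuroectoderm (adjusted p = 8.99e-06). The directions against the shared hESC libraries were opposite, and the test between the lineages passed (adjusted p = 1.01e-07). The size of any fitted difference from neuroectoderm is set by the pseudocount of 1 and is not read as a fold.

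HSPB1 (HSP27), which binds actin filaments and unfolded proteins, was at 36.0, 12.4 and 24.2 RPKM in hESC, 2.55, 8.49 and 4.82 in neuroectoderm and 35.3, 50.2 and 51.5 in mesendoderm. Neuroectoderm was below both other groups in all libraries, and mesendoderm overlapped hESC. HSPB1 fell by 1.999 ± 0.42 in neuroectoderm (adjusted p = 0.00458), and the difference of 0.99 ± 0.42 in mesendoderm did not pass (adjusted p = 0.104) but did in 3 settings (0.0434 to 0.0493). The transcript has a GC content of 62.9%, and the libraries that stand apart were each the lowest of their group for it. HSPB2, HSPB6, HSPB7 and HSPB9 were under the minimum, at 0.73 RPKM or less. HSPB2 shares its locus with the readthrough unit HSPB2-C11orf52, which was at 2.66 to 2.95 RPKM in mesendoderm and 0.75 to 1.05 in hESC. Muscle is a tissue of high HSPB8 and HSPB1: of 5 muscle markers ACTC1 was at 31.3 to 54.0 RPKM in mesendoderm and 3.50 to 4.38 in hESC, TNNT2 was lower in mesendoderm (0.65 to 1.44 RPKM), and MYH6, MYOD1 and MYOG stayed at or below 0.37 RPKM. The part of cells with KDR or the listed amnion or trophoblast markers in the HSPB values of mesendoderm was not tested.

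BAG proteins, exchange factors that steer HSP70 clients, also differed between the lineages. BAG3 was at 4.45, 3.66 and 3.06 RPKM in hESC, 1.64, 2.99 and 2.48 in neuroectoderm and 12.7, 8.0 and 11.3 in mesendoderm, and rose in mesendoderm by 1.29 (adjusted p = 0.00117). BAG2, which inhibits the ubiquitin ligase CHIP, was at 6.31, 7.49 and 6.75 RPKM in hESC, 0.88, 0.76 and 0.97 in neuroectoderm and 9.24, 11.1 and 9.31 in mesendoderm. Neither gene's mesendoderm values overlapped another group. BAG2 fell by 2.07 in neuroectoderm (adjusted p = 9.34e-07) and rose in mesendoderm by 0.47 (adjusted p = 0.00759), a rise lost with small RNA left out (0.134). Over the 13 exchange factors and partners of HSP70, 4 fell and 1 rose in neuroectoderm, and 2 fell and 3 rose in mesendoderm. Of the 4 falls in neuroectoderm, that of BAG4 was lost in 11 settings and that of HYOU1 in 10. SIL1, the exchange factor of BiP, rose in both lineages, from 2.0 to 2.47 RPKM in hESC to 5.01 to 8.20 in neuroectoderm and 4.12 to 6.26 in mesendoderm (adjusted p = 0.000623 and 0.00587).

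**Figure D4:**
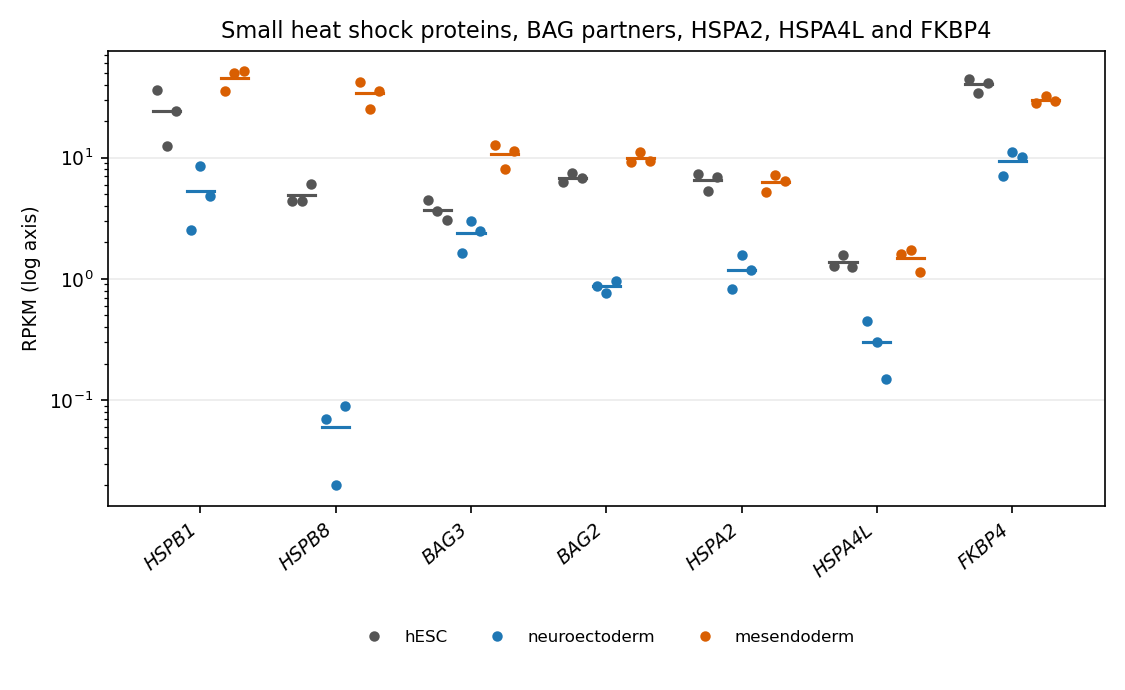
RPKM on a log axis of HSPB1, HSPB8, the partners BAG3 and BAG2, HSPA2, HSPA4L and the HSP90 co-chaperone FKBP4; points are libraries and lines group means. HSPB8 spans from under 0.1 RPKM in neuroectoderm to over 25 RPKM in mesendoderm, and neuroectoderm is lowest for all 7 genes.

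Cytosolic J proteins of the DNAJA and DNAJB families, the general partners of HSPA8, had differences from hESC of smaller size than HSPA8 in both lineages, which was not tested as such. DNAJA1, the most abundant of them, was at 83.3, 80.3 and 88.3 RPKM in hESC, 69.9, 72.0 and 76.3 in neuroectoderm and 56.8, 62.0 and 63.7 in mesendoderm. It was lowest in mesendoderm, where it fell by 0.46 ± 0.12 (adjusted p = 0.0145; lost without hESC 3 or mesendoderm 1), and differed by -0.21 ± 0.12 in neuroectoderm (adjusted p = 0.19). DNAJA2 fell in neuroectoderm instead, from 35.5, 37.8 and 36.1 RPKM to 24.3, 24.6 and 25.4 (0.54 ± 0.10, adjusted p = 0.00167). DNAJB6, which keeps polyglutamine proteins from aggregating, was at 48.5, 47.8 and 49.7 RPKM in hESC, 18.9, 22.7 and 24.2 in neuroectoderm and 26.2, 33.7 and 28.2 in mesendoderm. It fell in both lineages, by 1.12 ± 0.14 and 0.72 ± 0.14 (adjusted p = 0.000177 and 0.00324), and its second transcript had the same order of group means, 44.4, 19.6 and 26.2 RPKM.

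DNAJB1, the classic stress-inducible HSP40, was at 28.9, 14.9 and 26.3 RPKM in hESC, 8.14, 21.5 and 20.75 in neuroectoderm and 17.4, 21.3 and 22.0 in mesendoderm. The lowest value of each group belonged to a library that stands apart, and no difference passed with all libraries (adjusted p = 0.288 and 0.779 against hESC), but both lineages were lower than hESC without those 3 (adjusted p = 0.00749 and 0.014). DNAJB2, known from neurons, was at 8.62, 8.51 and 11.3 RPKM in hESC and 10.7, 15.8 and 14.7 in neuroectoderm, which overlap. It passed as higher (0.49 ± 0.17, adjusted p = 0.0402) and lost that call in 10 settings (0.0501 to 0.147). DNAJB4 was at 2.94, 3.71 and 2.61 RPKM in hESC, 6.11, 3.93 and 4.94 in neuroectoderm and 2.58, 2.02 and 1.68 in mesendoderm. It separated the lineages by 0.95 ± 0.17 (adjusted p = 0.0015), and its rise over hESC (0.55 ± 0.17, adjusted p = 0.0267) was lost in 6 settings (0.056 to 0.105). DNAJB5 fell by 0.40 ± 0.14 in neuroectoderm (adjusted p = 0.0423), lost in 11 settings.

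DNAJC genes carry a J domain in otherwise unrelated proteins, and their differences ran both ways. DNAJC12, a partner of the aromatic amino acid hydroxylases, was at 0.71, 0.70 and 0.53 RPKM in hESC, 1.42, 1.59 and 2.0 in neuroectoderm and 0.07, 0.15 and 0.18 in mesendoderm. The groups were separate: DNAJC12 rose in neuroectoderm by 0.69 ± 0.11 (adjusted p = 0.000721), fell by 0.54 ± 0.11 in mesendoderm (adjusted p = 0.00401), and differed between the lineages (adjusted p = 1.59e-05). Its values in mesendoderm were near the 3-read floor of a 1-kb transcript, where the pseudocount of 1 limits the size of the fitted differences. DNAJC24, which takes part in making diphthamide on elongation factor 2, was at 2.52, 3.86 and 2.78 RPKM in hESC, 7.95, 4.04 and 5.31 in neuroectoderm and 2.35, 2.47 and 2.67 in mesendoderm. Neuroectoderm was higher than mesendoderm by 0.91 ± 0.20 (adjusted p = 0.00529) and than hESC by 0.71 ± 0.20 (adjusted p = 0.0194), the latter lost in 3 settings (0.0522 to 0.0724).

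Vesicle J proteins also differed. DNAJC6 (auxilin), which with HSPA8 strips clathrin from vesicles, was at 0.47, 0.80 and 0.62 RPKM in hESC, 1.35, 1.18 and 1.15 in neuroectoderm and 3.88, 2.03 and 2.94 in mesendoderm. All libraries of both lineages were above those of hESC. The rise was 1.26 ± 0.16 in mesendoderm (adjusted p = 0.000402), and the difference of 0.45 ± 0.16 in neuroectoderm did not pass (adjusted p = 0.0507) but did in 6 settings (0.0122 to 0.0236). Its ubiquitous relative GAK was at 8.92 to 19.4 RPKM over the 9 libraries and passed no test against hESC in the main setting. DNAJC5, the cysteine string protein of synaptic vesicles, was at 9.07, 9.15 and 9.97 RPKM in hESC, 10.2, 16.3 and 15.6 in neuroectoderm and 11.9, 13.6 and 13.6 in mesendoderm. It rose in neuroectoderm by 0.51 ± 0.17 (adjusted p = 0.0339; lost in 8 settings), and the difference of 0.43 ± 0.17 in mesendoderm missed the threshold (adjusted p = 0.0734) but passed in 4 settings (0.00329 to 0.0205).

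**Figure D5:**
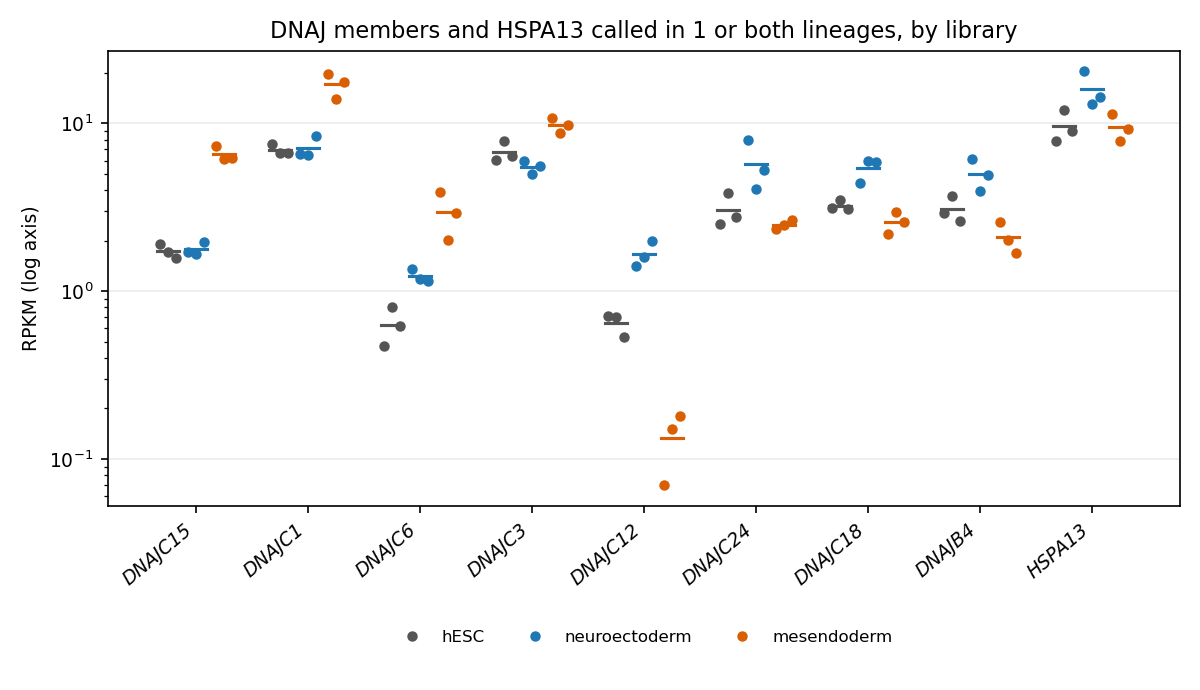
RPKM on a log axis of 8 DNAJ members and HSPA13 that passed a test against hESC; points are libraries and lines group means. DNAJC15, DNAJC1, DNAJC6 and DNAJC3 are highest in mesendoderm, and DNAJC12, DNAJC24, DNAJC18, DNAJB4 and HSPA13 are highest in neuroectoderm.

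Further DNAJC members with nuclear or cytosolic roles fell. DNAJC7, a co-chaperone that binds both HSP70 and HSP90, was at 34.7, 38.8 and 43.6 RPKM in hESC, 17.4, 24.8 and 24.6 in neuroectoderm and 30.6, 31.7 and 31.0 in mesendoderm, and fell by 0.79 ± 0.16 in neuroectoderm (adjusted p = 0.00306). DNAJC8, a protein of spliceosome preparations, was at 48.0, 44.0 and 49.7 RPKM in hESC and 32.9, 36.1 and 38.1 in neuroectoderm, a fall of 0.40 ± 0.11 (adjusted p = 0.0194; lost in 3 settings), and overlapped hESC in mesendoderm. DNAJC9, a histone chaperone, was at 20.5, 17.9 and 20.7 RPKM in hESC and 12.9, 15.8 and 12.98 in mesendoderm, a fall of 0.48 ± 0.16 (adjusted p = 0.0416) that was lost in 7 settings (0.0543 to 0.134). DNAJC13, DNAJC17, DNAJC21 and DNAJC27 passed no test against hESC in the main setting, nor did DNAJC4 and DNAJC28, whose compartment was left unassigned. DNAJC21 passed as higher in mesendoderm without the 3 libraries that stand apart (adjusted p = 0.0443). DNAJC28 passed as lower in neuroectoderm without hESC 3 (adjusted p = 0.0393). For DNAJC17 neuroectoderm 1 was at 5.71 RPKM and the other two at 17.3 and 16.1, so the group spread widely.

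HSP90 co-chaperones were partly lower in neuroectoderm, with 6 of 16 tested lower and none higher, and 4 lower and none higher in mesendoderm by limma. At an unadjusted p under 0.05, 0 and 1 were higher. FKBP4, an immunophilin of steroid receptor complexes, went from 44.6, 34.3 and 41.6 RPKM in hESC to 7.03, 11.2 and 10.1 in neuroectoderm and 28.0, 32.4 and 29.4 in mesendoderm. It fell by 1.996 in neuroectoderm (adjusted p = 2.3e-05), and the difference in mesendoderm did not pass (adjusted p = 0.101) but did in 5 settings (0.00613 to 0.0359). PTGES3 (p23), CHORDC1 and SUGT1 fell in both lineages, by 0.77 to 0.85 in neuroectoderm and 0.39 to 0.71 in mesendoderm. The mesendoderm calls were lost without hESC 2 or mesendoderm 3 for PTGES3, hESC 1 or mesendoderm 1 for CHORDC1, and hESC 3, mesendoderm 2 or mesendoderm 3 for SUGT1 (0.055 to 0.0716). FKBP5 fell by 0.76 in mesendoderm (adjusted p = 0.000621). STIP1, which joins HSP70 to HSP90, was at 65.5 to 151 RPKM and passed no test. Among 14 subunits of the cytosolic chaperonin and of prefoldin, 6 fell and 1 rose in neuroectoderm and 1 fell and 1 rose in mesendoderm: CCT5 fell by 0.89 in neuroectoderm (adjusted p = 0.00318), TCP1 by 0.82 (adjusted p = 0.00352), and CCT6B, a subunit known from testis, rose by 0.74 from 0.44 to 0.68 RPKM to 1.38 to 1.89 (adjusted p = 0.000454). Of 8 tested chaperones whose names fall outside the families, TRAP1, the mitochondrial HSP90, among them, none passed against hESC in either lineage by limma, with 3 lower in neuroectoderm and 0 in mesendoderm at an unadjusted p under 0.05. TRAP1 and GAK passed as lower in neuroectoderm in 4 settings each (0.0208 to 0.0436 and 0.0124 to 0.0461).

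Of the 32 members called in neuroectoderm against hESC, 22 were called in each of the 19 alternative settings, as were 10 of 16 in mesendoderm against hESC and 20 of 31 between the lineages. Without the 3 libraries that stand apart all 32, 16 and 31 calls were kept in the same direction, and 36, 26 and 37 members were called. The share of all genes called in that setting is not given, so the larger counts are not read as a result about the members. Calls of at least 2-fold on the log2(RPKM + 1) scale were 11 falls and no rise in neuroectoderm (19.6% and 0.00% of the members, beside 8.17% and 6.08% of all genes) and 4 rises and no fall in mesendoderm (7.14% and 0.00%, beside 6.74% and 4.72%). That scale understates changes of low genes and misses some called members. In RPKM, ratios of group means to hESC were 2.58 for DNAJC12 and 0.219 for HSPA4L in neuroectoderm. They were 0.206 for DNAJC12 and 0.374 for HSPA12B in mesendoderm.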

How the data were processed

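Total RNA of 9 libraries of H9 cells was measured in 3 groups of 3, grouped by their titles. Per the labels' protocols, RNA was depleted of ribosomal RNA and sequenced from an Ion Torrent total RNA library kit. The authors deposited RPKM values of 38759 RefSeq transcripts. Tools listed, per the submitters' processing notes, were TopHat, TopHat2 2.0.13 and Bowtie2, with hg19 as the build. How reads were counted (tool, strand, multiple matches) was not given in the sources used here, so overlapping and near-identical genes are uncertain.

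Each of 21417 symbols was represented by its transcript of highest mean (23 of the 70 members had several). The 14473 genes averaging 0.5 RPKM or more were fitted as log2(RPKM + 1), a scale that understates changes of low genes, with limma 3.58.1 in R 4.3.3, a mean-variance trend and all 9 libraries in 1 model. Differences are log2 ± SE, and adjusted p-values are Benjamini-Hochberg over all tested genes with a threshold of 0.05. The fit was tested on simulated data. No set of genes was tested as a whole. Counts of the related lists stand beside 22.3% of all genes lower and 21.9% higher in neuroectoderm. In mesendoderm these shares were 18.1% and 17.0%, and for neuroectoderm against mesendoderm 24.1% and 24.0%. Depth was read from the steps of low small RNA values (92.7% to 96.9% of 193 to 257 values per library within 0.1 of a read).

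The members, gene lists and compartments were chosen with earlier results of these data known. Full statistics were set to go to the up to 10 largest rises and falls per comparison whose groups do not overlap and whose higher group averages at least 5 RPKM, to the most abundant member of each family and to the organelle forms of HSPA and HSP90. From each related list up to 4 genes with the largest passing change were to be named, and always HSF1 and HSF2. Members outside that rule are given for their level or role. The related genes PFDN6, ATF6B and CGB5 were not analysed here. Promoter windows come from RefSeq on GRCh38.p14.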

Additional observations from a re-analysis of the deposited data

Results flagged for a closer look

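Members that moved in opposite directions in the lineages were HSPB8 and DNAJC12, each called in both comparisons with hESC and tested directly between the lineages. HSPB8 was lower in neuroectoderm and higher in mesendoderm, with neuroectoderm below mesendoderm in 3 of 3 libraries (adjusted p = 1.01e-07). Its fitted log2(RPKM + 1) difference, -5.03, rests on neuroectoderm values near the 3-read floor, is set by the pseudocount and is neither a fold nor a bound. DNAJC12 was higher in neuroectoderm and lower in mesendoderm, with a fitted difference of 1.23 on the same scale (adjusted p = 1.59e-05), higher in 3 of 3 libraries, and its mesendoderm values were also near that floor. Groups of 3 libraries were too small for a check of single outlying samples.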

How the results depend on the processing

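The 24 members lower in neuroectoderm than hESC became 21 to 25 over the 19 alternatives, within 1.5 times in each. The 8 higher became 3 with small RNA left out, 5 with trimmed mean scaling, 5 with only the 2 groups compared, and 2 to 8 when leaving out 1 library. In mesendoderm against hESC, leaving out 1 library gave 4 to 10 higher (6 in the main setting) and 6 to 16 lower (10), and 11 were higher without the 3 libraries that stand apart. Between the lineages, leaving out 1 library gave 5 to 10 higher (6), 10 were higher without those 3 libraries, and 16 were lower (25) with small RNA left out. Leaving out neuroectoderm 1 gave the highest counts, 10 higher and 16 lower in mesendoderm against hESC and 10 higher between the lineages, leaving out hESC 3 or mesendoderm 1 gave 6 lower in mesendoderm, and leaving out hESC 1, hESC 3, neuroectoderm 2, neuroectoderm 3 or mesendoderm 3 gave 2, 3, 5, 4 and 5 higher in neuroectoderm. The cause was not tested. Shares of all genes called in these settings are not given, so the shifts in counts are not read as results about the members. Summed transcripts turned the HSPA14 difference between the lineages to 0.032 (adjusted p = 0.806).

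Whether replicate numbers pair the libraries is not stated in the labels. Deviations of same-numbered libraries correlated from -0.738 to 0.401, those of neuroectoderm and mesendoderm at 0.392, 0.247 and 0.229. Differently numbered libraries correlated from -0.632 to 0.787. Deviations also went with GC content and cancel within a group, so these values cannot settle the pairing. With the replicate number as a block, 5 members were higher and 23 lower in neuroectoderm, 6 and 7 in mesendoderm, and 6 and 20 between the lineages. With 3 libraries a group, small differences and levels near 3 reads were not resolvable.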
